A study of Mus musculus with 4 samples.

Results

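Azoxymethane (AOM), a carcinogen that acts on the colon, followed by cycles of dextran sulfate sodium (DSS), a detergent-like polysaccharide that injures the colonic epithelium, is a standard mouse model of tumours arising in an inflamed colon. The genes described here are those whose read counts differed the same way between an AOM/DSS colon and an untreated colon under both genotype labels of the study. A gene was taken when its ratio was at least 2-fold in the same direction in the wild-type (WT) pair and in the pair labelled Card9-/-, with at least 50 reads in the higher library of each pair. Of 44788 genes in the table, 14873 reached 50 reads in both pairs, and 504 of these met the rule: 268 were higher and 236 lower with AOM/DSS under both labels. The ratios are on the log2(CPM + 1) scale, where CPM is the read count scaled by library size and TMM factor, and a log2 value of 1 is 2-fold. Since these ratios chose the genes, they are given as a description.

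There were 4 libraries of whole colon tissue, 1 per group, from mice on a C57BL/6 background. Untreated WT and untreated Card9-/- mice received neither agent and carry the label day 0. AOM/DSS mice of either genotype received 10 mg/kg AOM by intraperitoneal injection on day 1 and, 5 days later, drinking water with 2% DSS of 36 to 50 kDa, given in 3 cycles of 7 days, and were killed on day 100. Treatment and the 100 days between the collection labels cannot be told apart. The number of mice behind a library, their ages and whether an AOM/DSS colon sample held tumour, flat mucosa or both were not given in the sources used here, so the spread between mice is unknown. Card9-/- is a whole-body deletion of the adaptor protein CARD9, which relays signals from C-type lectin receptors of myeloid cells.

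Library totals ran from 23022885 to 27706567 counts, and 25437 to 26082 genes had at least 1 count. Card9 did not follow the labels. It had 44 counts (1.75 CPM) in untreated WT, 69 (3.18 CPM) in untreated labelled knockout, 116 (5.32 CPM) in AOM/DSS WT and 245 (7.73 CPM) in AOM/DSS labelled knockout, so both libraries labelled knockout had more Card9 reads than the WT library of the same treatment. The deleted part of the gene (not given in the sources used here) may lie outside these reads. The second pair is therefore called the pair labelled knockout throughout. One library, AOM/DSS labelled knockout, differed from the rest. Its correlation with the other 3 libraries over 15173 genes was 0.798 to 0.829, against 0.933 to 0.947 among those 3, and its 10 most abundant genes took 6.52% of reads against 13.5% to 14.3%. Every shared difference rests on that library for 1 of its 2 ratios. The 11 listed genes that mark colonic epithelium and region, most of whose sum came from Muc2 and Car1 in the other 3 libraries, summed to 13211 to 24517 CPM in those and to 2804 CPM in it. The pairs also differed in 2 genes of that list that mark position along the gut, both of the distal end. Hoxb13 had 1 read in each WT library and 7163 and 3438 reads in untreated and AOM/DSS labelled knockout. Hoxd13 had 0 and 1 reads in WT, and 276 and 2758 (12.7 and 87.1 CPM) in the libraries labelled knockout. The labels give no position along the colon, so region and genotype label cannot be told apart, and the part of region in the shared differences was not tested. In bulk tissue, fewer cells of a type and less RNA per cell cannot be told apart.

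Inflammation of the colon is known for neutrophils that enter the lamina propria and the crypts. Epithelial cells, fibroblasts and macrophages release CXC chemokines that bind the receptor CXCR2 on neutrophils, and interleukin 1, tumour necrosis factor and oncostatin M act on stromal cells, which in turn release more chemokines, proteases and adhesion signals. Beneath the epithelium, fibroblasts and muscle cells receive Hedgehog ligands from epithelial cells, lay down collagen and elastic fibres, and set gradients of bone morphogenetic proteins (BMPs) and retinoic acid.

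In the WT pair 627 genes of 15356 with the count minimum were at least 2-fold higher (4.08%) and 596 were lower (3.88%). In the pair labelled knockout 2245 of 15900 were higher (14.1%) and 2532 were lower (15.9%). Among the 14873 genes measured in both pairs, 1.8% were higher in both and 1.59% lower in both. The 268 higher genes were 46.8% of the 573 higher in the WT pair and 14.9% of the 1793 higher in the other pair. The 236 lower genes were 45.7% of the 516 lower in the WT pair and 9.80% of the 2409 lower in the other. Of the genes higher in the WT pair, 78 (13.6%) were at least 2-fold lower in the pair labelled knockout, and 109 (21.1%) of the WT-lower genes were higher there. The pairs share no library.

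**Figure D1:**
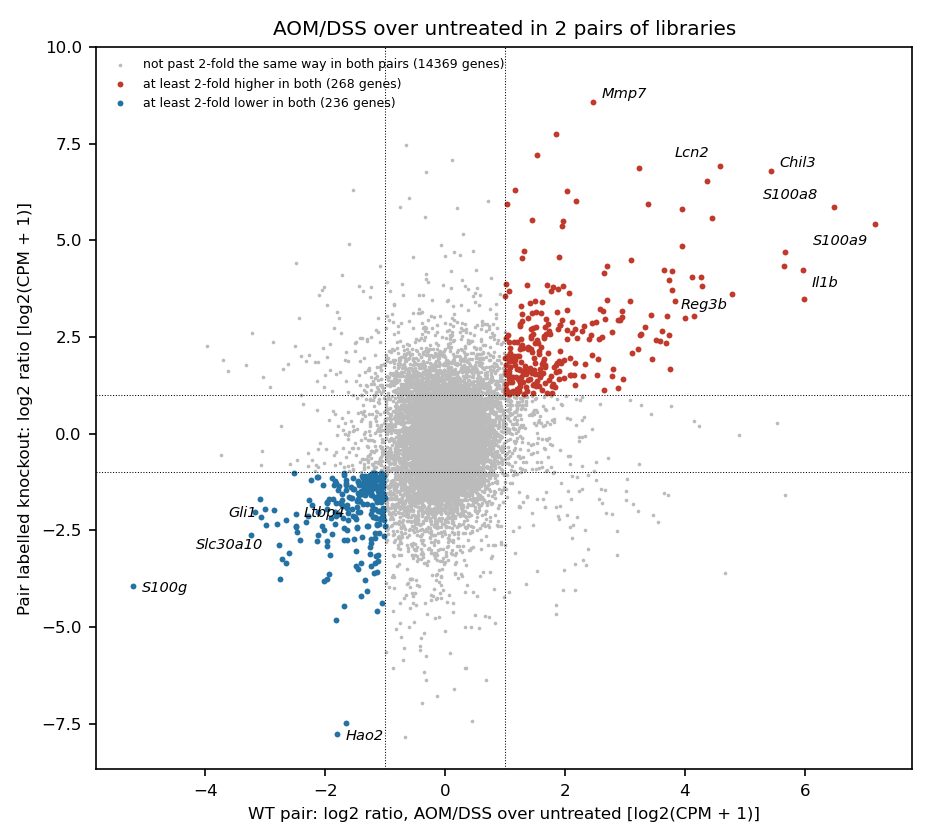
Each point is 1 of the 14873 genes with the count minimum in both pairs, placed by its log2 ratio of AOM/DSS over untreated, log2(CPM + 1), in the WT pair (x axis) and in the pair labelled knockout (y axis). The 268 genes in the upper right and the 236 in the lower left lie past 2-fold in both pairs, and the spread along the y axis is the wider one.

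The higher genes reached further than the lower ones. Their median log2 ratio was 1.63 in the WT pair and 2.20 in the pair labelled knockout, against 0.02 and -0.01 over all 14873 genes, and 70 were at least 4-fold, 28 at least 8-fold and 11 at least 16-fold higher in both pairs. The lower genes had medians of -1.39 and -1.78. On the log2(CPM + 1) scale only 25 of them reached 4-fold in both pairs, and S100g alone reached 8-fold. That scale understates the fall of genes with few reads, such as Retnla below. In 256 of the 268 higher genes (95.5%) both AOM/DSS libraries lay above both untreated ones, and in 219 of the 236 lower genes (92.8%) both lay below, which the choice of the genes largely fixes. Of all 14873 genes, 21.5% were separated upward in this way and 18.4% downward. The exceptions were genes that differed between the untreated libraries, such as Reg3b, Clu, Anxa8 and Slc30a10 below. The ratio was the larger one in the pair labelled knockout for 175 of the 268 and 167 of the 236, and the ratios of the pairs lay within 1.5-fold of each other for 124 and 137.

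The genes with the largest ratios in both pairs were products of neutrophils and of inflamed mucosa. Printed folds below are ratios of CPM without the pseudocount, with an exact 95% interval for counting error only. CPM values of a gene are given in 1 order: untreated WT, untreated labelled knockout, AOM/DSS WT, AOM/DSS labelled knockout.

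S100a8 and S100a9 encode the subunits of calprotectin, the metal-binding protein that fills neutrophil cytosol and is measured in stool as a sign of intestinal inflammation. S100a8 (chr3:90669071-90670034, GRCm38) had 1 and 2 reads in the untreated libraries and 2009 and 1969 with AOM/DSS, that is 0.0397, 0.0921, 92.1 and 62.2 CPM. The smaller of its 2 log2 ratios, 5.85, was above that of every other shared higher gene. Without the pseudocount it was 2322-fold (416 to 91757) higher in the WT pair and 675-fold (187 to 5579) in the other. The untreated libraries were close to empty for it and the AOM/DSS libraries differed from each other by less than 2-fold. S100a9, which lies beside it (chr3:90692630-90695721), was at 0.278, 0.598, 183 and 67.3 CPM, again with both AOM/DSS libraries far above both untreated ones. S100a14, a relative made by epithelium in the same block of chromosome 3, stood at 21.9, 56.0, 72.5 and 338 CPM. Here the untreated libraries already held many reads, and the ratios were 3.30-fold (3.0 to 3.65) and 6.04-fold (5.69 to 6.41).

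The bases just before the start sites of S100a8 and of 3 neutrophil-attracting chemokines are shown. These genes lie in blocks where several neighbours were higher. Their weaker log2 ratios were 5.85 for S100a8, 4.33 for Cxcl2, 2.91 for Cxcl1 and 2.43 for Cxcl3. Each line is the 250 bases upstream of the RefSeq start (GRCm38.p6, plus strand, 5′ to 3′), from RefSeq's promoter windows. Capitals mark matches on either strand to GGNNTTTCC or GGNNTTCCC, letters of an NF-kB site, and to the letters of a TATA box. A C/EBP site, with letters TTGCNNAA, would be marked likewise and is in none of these 4. Windows of some other higher genes were searched too and are not printed. Those of S100a9, Lcn2 and Clec4e held a C/EBP match and no NF-kB match. The window of Saa3 held both, and that of Il1b held neither.

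Cxcl1 (chr5:90890995-90891244): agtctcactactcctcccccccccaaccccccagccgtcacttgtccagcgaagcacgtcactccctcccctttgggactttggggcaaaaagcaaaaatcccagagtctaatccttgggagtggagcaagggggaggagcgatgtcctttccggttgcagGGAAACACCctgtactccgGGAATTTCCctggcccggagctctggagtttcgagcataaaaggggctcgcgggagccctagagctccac
Cxcl2 (chr5:90903649-90903898): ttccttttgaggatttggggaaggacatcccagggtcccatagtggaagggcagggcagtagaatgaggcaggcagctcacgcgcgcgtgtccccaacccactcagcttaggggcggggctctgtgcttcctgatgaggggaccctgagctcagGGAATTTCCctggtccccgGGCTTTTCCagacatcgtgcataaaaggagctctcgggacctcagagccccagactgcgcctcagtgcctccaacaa
Cxcl3 (chr5:90785851-90786100): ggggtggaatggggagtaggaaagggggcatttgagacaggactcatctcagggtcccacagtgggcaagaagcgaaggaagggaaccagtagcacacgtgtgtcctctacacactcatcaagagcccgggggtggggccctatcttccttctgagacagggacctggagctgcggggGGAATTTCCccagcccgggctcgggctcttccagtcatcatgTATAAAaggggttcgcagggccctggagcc
S100a8 (chr3:90668821-90669070): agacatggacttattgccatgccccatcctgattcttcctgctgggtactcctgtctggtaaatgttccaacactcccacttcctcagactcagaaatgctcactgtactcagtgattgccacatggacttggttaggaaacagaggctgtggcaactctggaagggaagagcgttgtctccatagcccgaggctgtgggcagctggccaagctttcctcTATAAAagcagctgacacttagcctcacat

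All 3 chemokine windows hold GGAATTTCC, which begins 70 bases before the start of Cxcl1, 96 before Cxcl2 and 72 before Cxcl3. A further match begins 89 bases before the start of Cxcl1 and 77 before Cxcl2. Windows of Cxcl3 and S100a8 carry TATAAA, the TATA-box letters, 30 bases before the start. Windows were given for 184 of the 268 higher genes, 152 of the 236 lower genes and 9913 of all 14873. An NF-kB match of either form was in 17.9% of the higher, 11.8% of the lower and 10.5% of all windows. For C/EBP these shares were 17.4%, 9.21% and 7.44%, for the AP-1 letters TGANTCA 12.0%, 8.55% and 4.49%, for the STAT letters TTCNNNGAA 13.0%, 5.26% and 5.94%, and for the TATA box 21.2%, 13.2% and 6.73%. The CDX letters TTTATNG, which overlap the TATA letters, were in 17.4%, 10.5% and 6.51%. Windows of higher genes were also poorer in G and C (median 53.6% against 59.6% over all windows), and the part of base composition in these shares was not tested. A match is a description of letters and not evidence of a bound factor.

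Cxcl1, Cxcl2, Cxcl3 and Cxcl5 encode ligands of CXCR2 and lie within 147 kb on chromosome 5 (chr5:90759298-90905938), where 4 of the 5 genes with the count minimum were higher in both pairs. Cxcl2 stood at 0, 0.0460, 49.5 and 20.1 CPM, at least 416-fold higher in the WT pair against a floor of 3 reads and 437-fold (78.1 to 17281) higher in the other. Cxcl1 was at 0.0397, 0.552, 6.83 and 10.9 CPM and Cxcl3 at 0.0397, 0, 10.9 and 4.39 CPM. All 3 were almost silent in the untreated colons. Cxcl5, a chemokine made largely by epithelial and stromal cells, was at 0, 0.138, 8.44 and 133 CPM: it was high in both AOM/DSS libraries, at least 70.9-fold and 962-fold (329 to 4667), but 133 CPM came from the library that stood apart. Their receptor gene Cxcr2 was at 0.0793, 0.0460, 10.7 and 7.77 CPM and was 135-fold (36.9 to 1118) and 169-fold (30.0 to 6690) higher. Over the whole list of 11 measured CXC chemokines, 5 were higher in both pairs and 0 lower. The fifth was Cxcl9, an interferon-induced chemokine for T cells, at 2.62, 2.99, 6.37 and 244 CPM. Cxcl10, of the same function, was at 3.61, 4.23, 3.48 and 73.9 CPM and so was high in 1 AOM/DSS library only.

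Of 13 measured CC chemokines 4 were higher in both pairs and 0 lower, with list medians of 0.54 and 0.23. Ccl3 and Ccl4, which attract monocytes and lymphocytes, lie beside Wfdc17 on chromosome 11 (chr11:83647843-83706269), where all 3 measured genes were higher in both pairs. Ccl3 was at 0.198, 0.0921, 15.2 and 2.49 CPM and Ccl4 at 0.397, 0.460, 14.4 and 4.55 CPM, both highest in AOM/DSS WT. Ccl2 and Ccl7, monocyte attractants that bind CCR2, went the other way in size. Ccl2 was at 1.19, 0.875, 8.21 and 22.5 CPM and Ccl7 at 0.674, 1.20, 3.07 and 17.9 CPM, highest in AOM/DSS labelled knockout.

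Most measured neutrophil genes were higher. Of 9 measured genes for calprotectin and granule proteins, 8 were higher in both pairs, with list medians of 3.83 and 5.42. Measured means at least 50 reads in the higher library of each pair. Genes almost without untreated reads, such as S100a8, Mmp8, Ngp and Chil3, met that only through AOM/DSS, and those low throughout were not counted. The share of 8 of 9 and the medians are thus partly fixed by the filter. The same holds for the neutrophil receptor, cytokine and chemokine lists. The 14 genes listed summed to 6.17 to 17.3 CPM in the untreated and 469 to 705 CPM in the AOM/DSS libraries. Lcn2, which epithelium also expresses, gave 74.5 CPM of the sum in AOM/DSS WT and 306 CPM in AOM/DSS labelled knockout. Mmp8, neutrophil collagenase, was at 0.0793, 0.0460, 12.5 and 18.7 CPM. Ngp, neutrophilic granule protein, had 0 reads in both untreated libraries and 109 and 265 with AOM/DSS. Retnlg, a resistin-like product of neutrophils, was at 0.912, 0.690, 26.2 and 17.2 CPM, with close ratios of 28.7-fold (18.9 to 45.6) and 25-fold (15 to 44.9). Lactotransferrin, encoded by Ltf, was less even, at 0.436, 0.184, 4.63 and 52.2 CPM. Genes of primary granules stayed low: Mpo had 12 and 3 reads with AOM/DSS, Elane 3 and 0. Camp, another granule protein gene, had 17 and 13 reads with AOM/DSS. The ninth measured gene, Mmp9, at 13.0, 2.62, 22.8 and 57.9 CPM, had log2 ratios of 0.77 in the WT pair and 4.02 in the other.

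Of 12 measured receptors and surface genes of neutrophils, 10 were higher in both pairs and 0 lower. The receptor for granulocyte colony-stimulating factor, Csf3r, was at 2.54, 4.0, 41.6 and 25.2 CPM. Il1r2, a decoy receptor that binds interleukin 1 without signalling, was at 0.833, 1.80, 31.6 and 22.2 CPM, 37.9-fold (24.6 to 61.7) and 12.4-fold (8.95 to 17.5) higher. In both genes the WT library with AOM/DSS was the highest of the 4. The exceptions were Ly6g and Cd177. Ly6g, the usual surface marker of mouse neutrophils, was at 0.0397, 54.7, 30.0 and 53.0 CPM, so the untreated library labelled knockout was already high and its pair showed no difference (-0.04). Cd177, a surface glycoprotein, was at 176, 470, 103 and 289 CPM.

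Receptors of myeloid cells formed a second block. Mincle (Clec4e) and its partner Clec4d, C-type lectins that bind microbial and cell-damage glycolipids, and Clec4a2, an inhibitory relative, lie on chromosome 6 (chr6:123122690-123289871), where 3 of 5 measured genes were higher in both pairs. Clec4e was at 0.0793, 0.184, 20 and 15.9 CPM and Clec4d at 0.238, 0.506, 10.8 and 7.80 CPM. On chromosome 17 (chr17:48232713-48326511) Trem1, an amplifier of myeloid inflammation, was at 0.238, 0.506, 18.8 and 11.0 CPM, and its neighbour Treml2 at 1.03, 3.59, 7.02 and 11.4 CPM. Inhibitory receptors were higher as well. Lilrb4 stood at 2.10, 2.58, 23.1 and 28 CPM, near 11-fold in both pairs, and Pirb at 7.34, 8.70, 21.4 and 43.4 CPM; Lilrb4 and Gp49a are near-identical copies, so the division of reads between them is uncertain. A list of 29 genes of leukocyte receptors and their signalling, set after these values were seen, had 20 higher in both pairs, 0 lower, and medians of 1.41 and 1.71. It includes Card9 itself, at 3.05-fold (2.14 to 4.42) and 2.43-fold (1.86 to 3.23). Its partners Bcl10 and Malt1 and the upstream kinase Syk were within 2-fold in both pairs, with log2 ratios from -0.14 to 0.73.

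**Figure D2:**
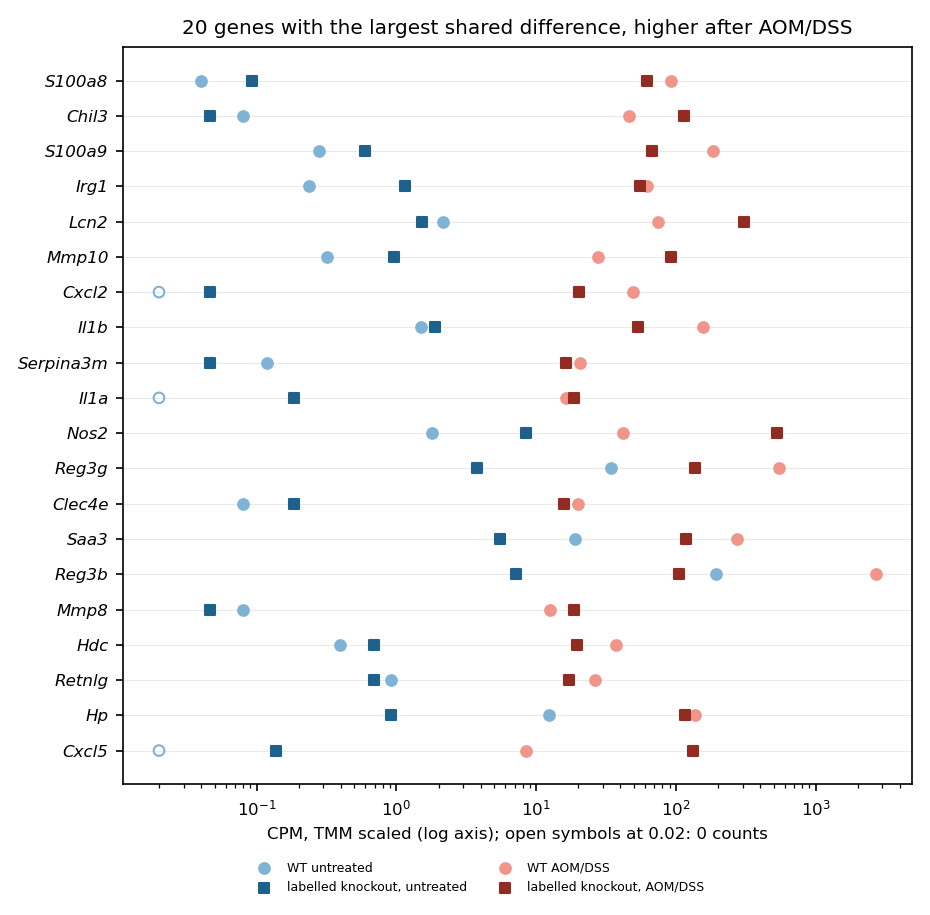
The 20 genes with the largest weaker ratio among the shared higher genes are listed with their CPM in each of the 4 libraries on a log axis, untreated and AOM/DSS libraries in separate colours, and open symbols for 0 counts. S100a8 heads the list at 0.0397 and 0.0921 CPM untreated against 92.1 and 62.2 CPM with AOM/DSS. Reg3b is the gene whose untreated WT library (194 CPM) lay above its AOM/DSS library labelled knockout (106 CPM).

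Interleukin 1 genes led the cytokines. Il1b (chr2:129364569-129371164), which encodes the secreted form matured by inflammasomes, was at 1.51, 1.89, 156 and 53.3 CPM, 104-fold (75.5 to 147) and 28.2-fold (20.7 to 39.5) higher. Il1a, its neighbour on chromosome 2 and an alarmin released by dying cells, had 0 and 4 reads untreated and 355 and 586 with AOM/DSS. Il1f9, an older symbol of the interleukin 36 gamma gene, had 0 and 1 reads untreated against 167 and 110. For all 3 the untreated libraries were near 0 reads or under 2 CPM. The antagonist Il1rn, at 10.9, 55.3, 56.7 and 70.6 CPM, was at least 2-fold higher only in the WT pair, since untreated labelled knockout was already near the treated level.

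Of 8 measured inflammatory cytokines 6 were higher in both pairs. Il11, a stromal cytokine of the interleukin 6 family, was at 0.357, 0.460, 15.7 and 8.14 CPM, 43.9-fold (22.9 to 96.9) and 17.7-fold (9.47 to 37.3) higher. Osm, which encodes oncostatin M from myeloid cells, was at 0.0397, 0.184, 12.3 and 4.99 CPM, and its receptor gene Osmr, on stromal and epithelial cells, at 16, 11.1, 34.3 and 47.9 CPM. Ligand and receptor were thus both higher in both pairs, the ligand more so in WT. Tnf was at 0.833, 2.07, 6.10 and 22.7 CPM and the alarmin Il33 at 7.86, 4.0, 20.8 and 22.5 CPM. Il1rl1, the receptor for interleukin 33, stood at 3.37, 4.28, 17.0 and 27.8 CPM, 5.03-fold (3.96 to 6.45) and 6.5-fold (5.24 to 8.13) higher. Il18 was the exception in direction, with log2 ratios of 1.37 and -1.63. Il6 had 36 and 8 reads with AOM/DSS and Il17a 1 and 4, below the count minimum.

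Feedback and response genes of NF-kB and STAT3 signalling, a list set after these values were seen, had 9 of 23 measured members higher in both pairs and 0 lower, with medians of 1.08 and 0.56. Socs3, the inhibitor induced by STAT3, was the leading one at 14.8, 13.0, 97.6 and 124 CPM, 6.60-fold (5.91 to 7.38) and 9.58-fold (8.49 to 10.8). Untreated and AOM/DSS libraries each lay close together. Cebpb, a transcription factor of the acute phase and of myeloid cells, was at 8.93, 12.1, 27.8 and 32.9 CPM, and Nfkbie, an NF-kB inhibitor, at 7.38, 11.0, 20.2 and 36.7 CPM. Hif1a, the oxygen-sensing transcription factor, was at 30.9, 89.9, 95.5 and 265 CPM: the ratios of 3.09 and 2.95 were alike, but untreated labelled knockout was nearly as high as AOM/DSS WT. The NF-kB and STAT3 subunit genes themselves (Rela, Relb, Nfkb1, Nfkb2, Stat3) were within 2-fold in both pairs, with log2 ratios from -0.32 to 0.81. Of 18 glycolysis and hypoxia genes 3 were higher in both pairs. The lactate exporter gene Slc16a3 led them at 2.74, 6.49, 36.5 and 49.7 CPM, followed by the oxygen sensor Egln3 at 22.2, 30.3, 82.2 and 93.4 CPM.

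Proteases and their inhibitors followed. On chromosome 9 (chr9:7272514-7568486) 4 of 5 measured matrix metalloproteinase genes were higher in both pairs: Mmp13, Mmp3, Mmp10 and Mmp8. Mmp10, stromelysin 2, was at 0.317, 0.967, 27.8 and 92.8 CPM, 87.5-fold (44.1 to 204) and 96.0-fold (62.7 to 155) higher, among the most even of the large ratios. Mmp3, stromelysin 1, was at 1.79, 0.875, 35.4 and 14.4 CPM. Mmp7, matrilysin, made by Paneth cells and intestinal tumours, differed in size between pairs, at 1.90, 0.736, 15 and 660 CPM. The protease inhibitor Timp1 (2.10, 2.35, 12.1 and 11.9 CPM) was near-equal across the labels. In all, 8 of 19 genes on the list were higher in both pairs and 0 lower. The 4 measured serpin A3 genes, protease inhibitors that lie on chromosome 12 (chr12:104214544-104414334), were all higher in both pairs. They are from a list set after these values were seen. Serpina3n was at 42.3, 51.9, 416 and 314 CPM and Serpina3m at 0.119, 0.0460, 20.5 and 16.2 CPM. These copies are similar in sequence, so the split of reads among them is uncertain.

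Epithelial defence genes were higher against uneven baselines. Lcn2, which encodes the siderophore-binding lipocalin 2 of neutrophils and epithelium, was at 2.14, 1.52, 74.5 and 306 CPM. Nos2, the inducible nitric oxide synthase, was at 1.79, 8.47, 42.0 and 528 CPM. For these genes the AOM/DSS library labelled knockout was several times higher than the WT one. The antibacterial lectin genes Reg3g (34.4, 3.77, 545 and 137 CPM) and Reg3b (194, 7.13, 2707 and 106 CPM) and the acute-phase gene Saa3 (18.8, 5.48, 272 and 119 CPM) had the opposite order. Reg3b had near-equal folds, 13.9 (13.5 to 14.3) and 14.8 (12.6 to 17.5), from very different untreated levels. Hp, which encodes the haemoglobin-binding acute-phase protein haptoglobin, was at 12.3, 0.921, 138 and 116 CPM. Its AOM/DSS libraries were alike, and the ratios of 11.2-fold (9.98 to 12.7) and 126-fold (81.8 to 207) differed through the untreated ones. Pla2g2a, a secreted antibacterial phospholipase, was at 0.357, 2.53, 5.14 and 228 CPM. Saa1 and Saa2 were not shared: their log2 ratios were 2.29 and 2.17 in the WT pair and -3.25 and -4.05 in the other, where untreated labelled knockout stood at 1318 and 34.9 CPM. Of 17 measured antimicrobial genes 7 were higher in both pairs and 0 lower in both.

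Genes known from regenerating, fetal-like colonic epithelium gave 8 of 19 higher in both pairs, with medians of 1.01 and 1.63. Anxa1, which encodes annexin A1 of resolving inflammation, was at 38.8, 83.9, 104 and 262 CPM, Clu (clusterin) at 52.6, 191, 180 and 538 CPM, and Areg, an epidermal growth factor receptor ligand, at 14.3, 10.9, 42.0 and 36.4 CPM. In Clu the untreated library labelled knockout lay above AOM/DSS WT, and Anxa8 (2.78, 22.7, 13.3 and 164 CPM) had the same order. Ly6a, Krt7 and Cldn4 of this list were high in AOM/DSS labelled knockout only, with log2 ratios of 0.06 to 0.50 in the WT pair and 2.23 to 3.63 in the other. Markers of squamous epithelium, which lines the anal end, were at 9.80 to 18.0 CPM summed over 17 genes in the other 3 libraries and at 105 CPM in AOM/DSS labelled knockout. Krt5, Krt14 and Krt6a were at 14.3, 17 and 16 CPM there against at most 2.16 CPM elsewhere. Their part in the shared values of Sprr1a, Ly6d and Anxa8 was not tested.

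Endothelial, macrophage, mast cell and T cell lists also held shared genes. Selp, P-selectin of activated endothelium and platelets, was at 4.21, 1.66, 31.9 and 19.9 CPM, 7.59-fold (6.18 to 9.40) and 12.0-fold (8.59 to 17.3) higher. Vcam1 (9.48, 12.2, 27.2 and 73.2 CPM) and Icam1 (12.1, 21.3, 26.4 and 114 CPM) encode further adhesion molecules for leukocytes. These were the 3 of 17 endothelial genes that were higher in both pairs, and the list's medians were 0.13 and 0.17. Irg1, now named Acod1, encodes the macrophage enzyme that makes itaconate and was at 0.238, 1.15, 62.1 and 55.2 CPM. Chil3, a chitinase-like protein of macrophages and neutrophils, had 2 and 1 reads untreated and 1001 and 3619 with AOM/DSS. General macrophage markers did not follow: Csf1r (-0.73 and 1.26), Cx3cr1 (-1.15 and 0.58) and Cd68 (0.19 and 1.11) are log2 ratios that were not shared, and 4 of 17 genes on the list were. Hdc, the histamine-forming enzyme of mast cells, basophils and some other myeloid cells, was at 0.397, 0.690, 37.4 and 19.7 CPM. The 7 mast cell protease genes on the list were all under the count minimum in the WT pair: Mcpt1 went from 7 to 40 reads and Mcpt2 from 2 to 32, while Cpa3 had 10 reads and Tpsab1 0 with AOM/DSS. In the pair labelled knockout Mcpt1 had 81 and 1483 reads and Mcpt2 27 and 2450. Of 12 measured T cell genes, Icos and Cd8b1 were higher in both pairs.

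Genes of epithelial transport and metabolism were among the lower genes, and S100g had the largest weaker ratio of all of them. S100g (chrX:162961992-162964599), which encodes the vitamin D-dependent calcium-binding protein calbindin-D9k of absorptive cells, was at 127, 24.3, 2.48 and 0.663 CPM, 51.2-fold (39.1 to 68.3) and 36.7-fold (23.7 to 59.7) lower. The untreated libraries differed too, with WT the higher. Slc30a10, a manganese exporter, was at 121, 6.81, 16.8 and 0.0631 CPM, so the WT library with AOM/DSS was above untreated labelled knockout and only the ratios within pairs were shared. Cyp2c55, an epithelial cytochrome P450, was at 1684, 218, 533 and 0.221 CPM, and Hao2, a peroxisomal hydroxyacid oxidase, at 269, 354, 76.6 and 0.631 CPM. For these the WT ratio was near 3-fold, while the AOM/DSS library labelled knockout was almost empty. That library was low across the epithelial lists: 19 of 24 colonocyte genes and 17 of 18 cytochrome P450 and steroid genes were at least 2-fold lower in its pair, against 2 and 4 in the WT pair. Only Cyp2c55 of the first list and Hao2, Cyp2c55 and Ugt2b5 of the second were lower in both. Scnn1g of the first list was higher in both, at 0.159, 3.45, 14.4 and 25.3 CPM.

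**Figure D3:**
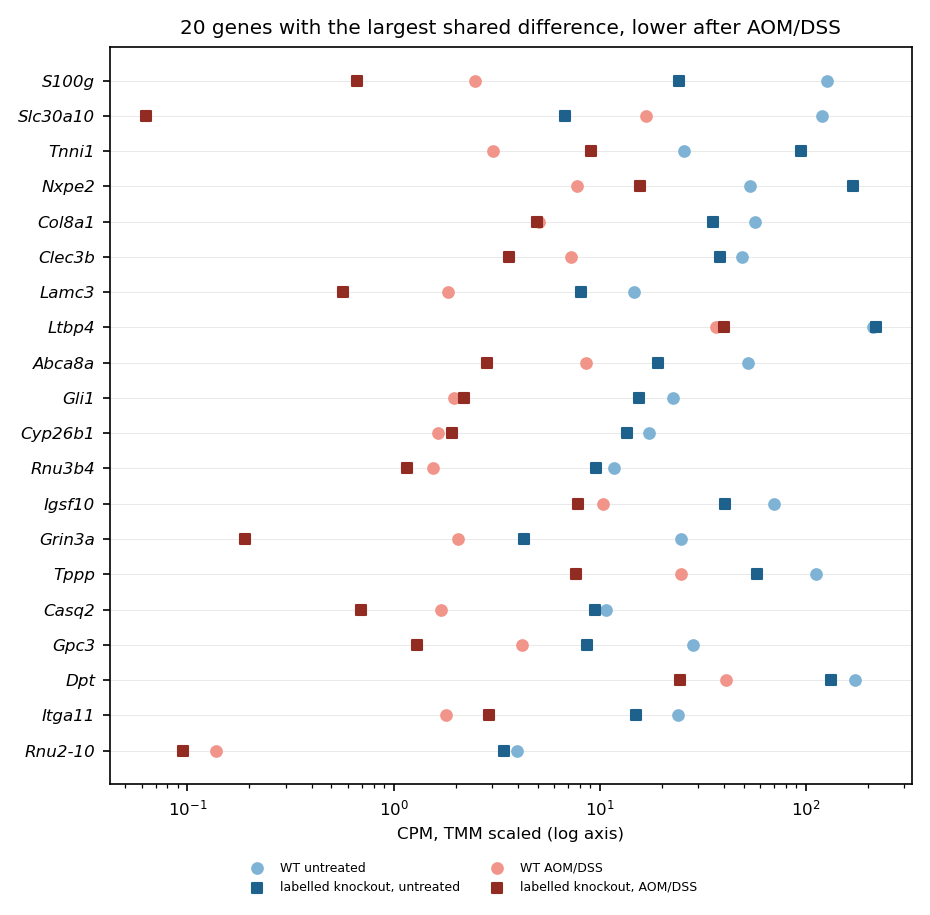
The 20 genes with the largest weaker ratio among the shared lower genes are listed with their CPM in each of the 4 libraries on a log axis, untreated and AOM/DSS libraries in separate colours. S100g spans from 127 CPM in untreated WT to 0.663 CPM in AOM/DSS labelled knockout, and Ltbp4 shows the tightest groups, at 212 and 218 CPM untreated against 36.8 and 40.1 CPM.

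Hedgehog signalling genes of the stroma were lower. Gli1 (chr10:127329882-127341579), the transcription factor that is itself a direct target of the pathway, was at 22.7, 15.5, 1.97 and 2.21 CPM, 11.5-fold (8.44 to 16.1) and 7.00-fold (5.40 to 9.19) lower. Hhip (chr8:79965850-80058060), a target that encodes a ligand-binding inhibitor, was at 51.7, 32.0, 5.59 and 7.51 CPM, 9.23-fold (7.66 to 11.2) and 4.26-fold (3.68 to 4.96) lower. In both genes the AOM/DSS libraries lay close together and well under the untreated ones. The co-receptor gene Gas1 (13.7, 12.3, 4.36 and 3.63 CPM) and the cilium gene Evc (18.1, 10.4, 7.57 and 3.44 CPM) were the other shared members. The receptor Ptch1, also a target, was at 116, 82.5, 27.7 and 48.1 CPM, with log2 ratios of -2.02 in the WT pair and -0.77 in the other. Foxl1, a transcription factor gene of the subepithelial stroma, parted, with log2 ratios of -1.79 in WT and 0.21 in the pair labelled knockout. The epithelial ligand Ihh was at 106, 109, 77.9 and 34.5 CPM. Over 19 measured genes of the pathway, a list set after these values were seen, 4 were lower and 0 higher in both pairs, with medians of -0.82 and -1.0.

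Matrix and stromal surface genes made up another block. Of 27 small leucine-rich and elastic fibre genes, a list also set after these values were seen, 10 were lower and 2 higher in both pairs. Ltbp4, which anchors latent TGF-beta to elastic fibres, was at 212, 218, 36.8 and 40.1 CPM, 5.76-fold (5.35 to 6.21) and 5.45-fold (5.12 to 5.80) lower. Dpt, dermatopontin, was at 174, 133, 40.9 and 24.5 CPM, and Tnxb, tenascin X of collagen fibrils, at 370, 210, 119 and 36.5 CPM. In these 3 genes each AOM/DSS library was below each untreated one. Ecm2, Aspn and Ogn, of the small leucine-rich group, lie on chromosome 13 (chr13:49504810-49624501), where 3 of 4 measured genes were lower in both pairs. Cell-surface and basement membrane genes accompanied them: Itga11, a collagen receptor subunit of fibroblasts, was at 24.1, 15, 1.79 and 2.90 CPM, Lamc3, a laminin chain, at 14.8, 8.15, 1.83 and 0.568 CPM, and Gpc3, a heparan sulfate proteoglycan, at 28.4, 8.65, 4.22 and 1.29 CPM. Clec3b, tetranectin of the matrix, was 6.78-fold (5.74 to 8.05) and 10.5-fold (8.67 to 12.9) lower. The general proteoglycan genes Dcn and Bgn were not shared, with log2 ratios from -0.67 to 0.17. Mgp (38.7, 45, 124 and 174 CPM), an inhibitor of calcification, and Ltbp2 (1.79, 3.96, 5.64 and 10.6 CPM) were the 2 that were higher.

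**Figure D4:**
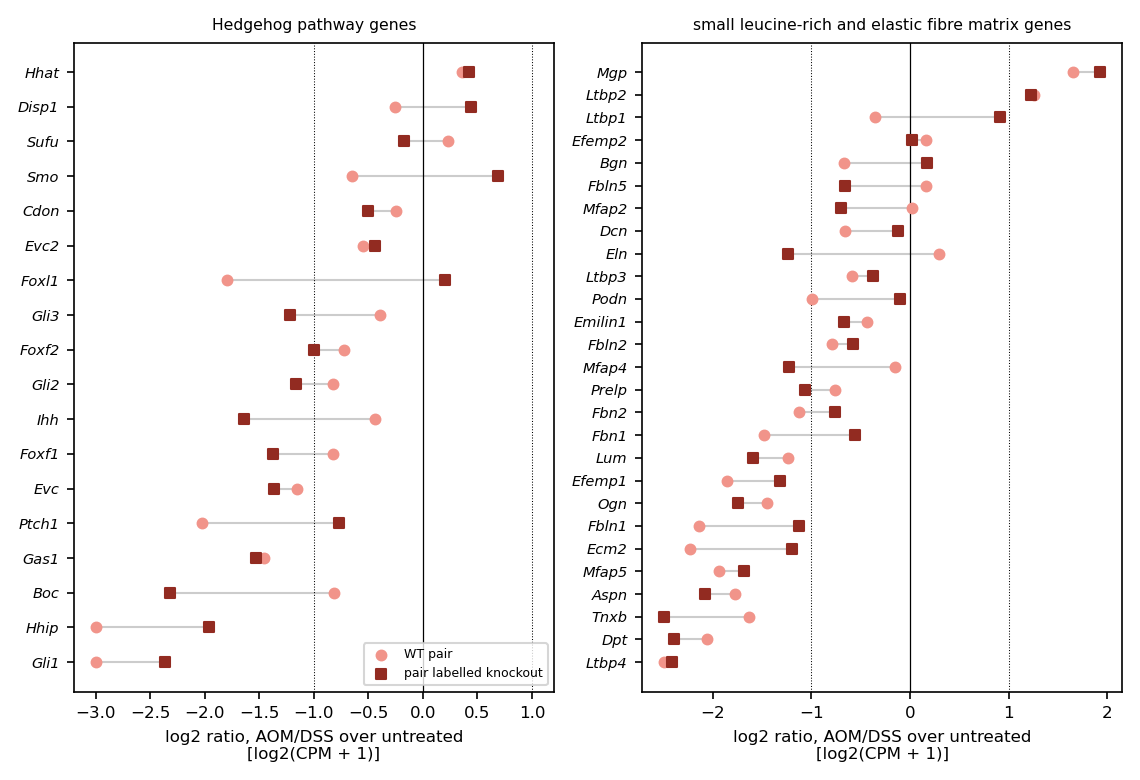
The 18 plotted of 19 measured Hedgehog pathway genes (left) and the small leucine-rich and elastic fibre genes (right) are placed by their log2 ratio of AOM/DSS over untreated, log2(CPM + 1), with a circle for the WT pair, a square for the pair labelled knockout and dotted lines at 2-fold. Gli1 and Hhip rank last on the left and Ltbp4, Dpt and Tnxb on the right by the mean of both ratios, while Foxl1 shows the widest gap of the genes plotted on the left (-1.79 and 0.21).

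Collagen genes of several types were lower. All 3 abundant collagen VI chains were lower in both pairs: Col6a1 was at 358, 250, 165 and 113 CPM, Col6a2 at 276, 228, 106 and 64.1 CPM, and Col6a3 at 251, 179, 116 and 78.6 CPM. Their ratios ran from 2.16-fold to 3.55-fold. Col8a1, a short-chain collagen, was at 56.5, 35.5, 5.09 and 4.96 CPM, 11.1-fold (9.15 to 13.6) and 7.16-fold (6.02 to 8.56) lower. Col4a5 and Col4a6, the basement membrane chains of smooth muscle, were lower as well, while the ubiquitous chains Col4a1 and Col4a2 had log2 ratios from -0.23 to 0.58. Fibrillar Col1a1, Col1a2 and Col3a1 had log2 ratios from -1.56 to -0.36 without reaching 2-fold in both pairs. In all, 6 of 22 collagen genes, a list set after these values were seen, were lower in both pairs and 0 higher. The 16 fibroblast and stroma markers summed to 3190 to 3428 CPM in the untreated and 2419 to 2424 CPM in the AOM/DSS libraries, with medians of -0.55 and -0.50.

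Muscle and fat tissue markers did not move in the same way in both pairs. The 11 smooth muscle genes summed to 9317, 10354, 7395 and 1423 CPM, and all 11 were at least 2-fold lower in the pair labelled knockout and 0 in the WT pair. Kit, which marks the pacemaker cells of the muscle layer as well as mast cells, was at 153, 88.8, 55.7 and 29.0 CPM, 2.75-fold (2.57 to 2.93) and 3.06-fold (2.83 to 3.31) lower. Casq2 (10.8, 9.48, 1.70 and 0.694 CPM) and Tnni1 (25.6, 95, 3.03 and 9.09 CPM) are genes of calcium storage and contraction in striated muscle. Fat cell genes summed to 1285, 323, 580 and 77.7 CPM over the 14 listed, the last fall mostly through Pck1, an enzyme gene that epithelium also expresses, at 183 and 2.68 CPM in the pair labelled knockout. Of the 9 measured, 4 were at least 2-fold lower in each pair, and Cfd, adipsin, was higher in the pair labelled knockout (34 and 131 reads) and at a log2 ratio of -0.95 in WT (4746 and 2110 reads). Adipoq and Plin1 had 11 and 2 reads in untreated labelled knockout against 1381 and 709 in untreated WT. Fat cell reads thus differed between the untreated libraries, and Fabp4 was the 1 of 9 measured genes that was lower in both pairs. The part of muscle and fat in the shared lower genes was not tested.

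Growth factor and retinoid genes went in both directions. Of 21 BMP and TGF-beta ligands and antagonists, a list set after these values were seen, 5 were lower in both pairs and 1 higher. Gdf10, a BMP-like ligand, was at 16.1, 13.8, 3.81 and 2.37 CPM and was among those lower. Inhba, the activin A subunit, was the one that was higher, at 0.317, 0.506, 4.40 and 8.74 CPM, 13.9-fold (6.76 to 33.0) and 17.3-fold (9.50 to 35.0). Inhba reads were thus few in the untreated libraries and more frequent in both AOM/DSS libraries. Retinoic acid genes split likewise. Cyp26b1, which degrades retinoic acid, was at 17.5, 13.6, 1.65 and 1.93 CPM, and Aldh1a2, which makes it, at 9.56, 10.9, 2.75 and 1.58 CPM. The retinol dehydrogenase gene Dhrs9 (11.8, 7.32, 49.7 and 30.0 CPM) was higher in both pairs. Stra6, a membrane carrier for retinol, was higher too but uneven, at 0.516, 6.77, 4.86 and 323 CPM. Of 16 retinoid genes, a list also set after these values were seen, 4 were lower and 3 higher.

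Rare epithelial lineages were represented among the lower genes. Enteroendocrine cells, which secrete gut hormones, gave 4 of 12 genes: Chga was at 199, 95.2, 73.1 and 27.9 CPM, 2.72-fold (2.57 to 2.88) and 3.41-fold (3.15 to 3.69) lower, and Chgb, Sct and Nts followed. Insl5 and Pyy, hormones of the distal colon, were not shared. Insl5 was at 2.38, 151, 2.75 and 0.568 CPM, with untreated labelled knockout alone high. Tuft cells, chemosensory cells of the epithelium, gave 3 of 9: Trpm5, their taste-type ion channel, was at 15.5, 18.4, 3.21 and 0.442 CPM, Sh2d6 at 6.39, 5.62, 2.11 and 1.80 CPM, and Rgs13 at 2.90, 4.05, 0.779 and 0 CPM. Pou2f3, Gfi1b and Gnat3 of the same cells had fewer reads with AOM/DSS but were under the count minimum in at least 1 pair, with log2 ratios from -0.47 to -1.28. Alox5ap, shared by tuft cells and leukocytes, was higher in both pairs, at 3.65, 6.81, 22.3 and 26.5 CPM, and Dclk1 had log2 ratios of -0.95 and -2.58. Of 15 goblet cell genes Clca3 alone was lower in both pairs, at 1120, 6741, 348 and 306 CPM.

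Other lower genes belong to none of these groups. Retnla, a resistin-like protein of alternatively activated macrophages and epithelium, had 174 and 66 reads untreated against 2 and 1 with AOM/DSS. The clock output repressor Nr1d1 was at 146, 167, 54.5 and 8.18 CPM and Hlf, a clock-controlled factor, at 11.2, 8.15, 4.45 and 1.04 CPM. Nfil3, which opposes Hlf at shared sites, was higher, at 12.7, 5.43, 38.7 and 33.6 CPM. The core clock genes Arntl, Clock and Per2 were not shared, and no hour of collection is named in the labels. Among genes that RefSeq lists as small nuclear RNA, 6 of 8 were lower in both pairs, with medians of -1.67 and -1.86. They include Rnu2-10, of the U2 spliceosomal RNA, with 100, 75, 3 and 3 reads, and the 4 U3 copies Rnu3b1 to Rnu3b4 (chr11:87443237-87471582). Reads of such near-identical copies can be divided or lost in counting, and recovery of short RNA depends on library preparation, whose part was not tested.

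Some lists that tumours and immune infiltrates are known for had no shared member. Of 19 interferon response genes, 17 Wnt targets, 20 proliferation genes and 15 B and plasma cell genes, 0 were at least 2-fold higher in both pairs and 0 lower in both. The Wnt target list had medians of -0.52 in the WT pair and 1.75 in the other, and the proliferation list -0.62 and 1.37. Of these lists, 14 of 17 Wnt targets and 16 of 20 proliferation genes were higher in the pair labelled knockout alone, and 0 were higher in the WT pair.

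**Figure D5:**
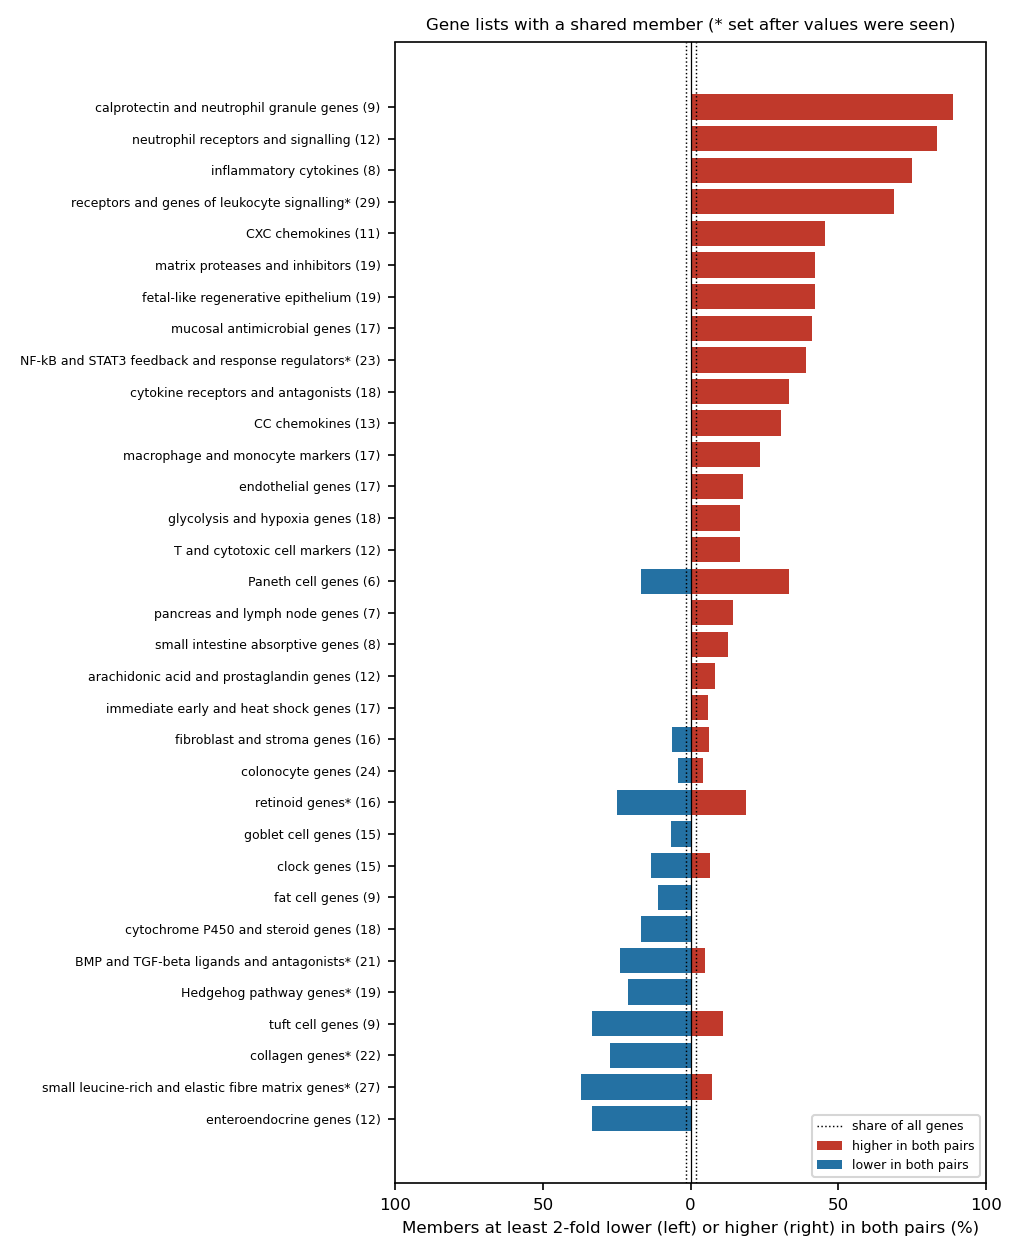
Each row is a gene list, with bars for the share of its measured members (%) that were at least 2-fold higher (to the right) or lower (to the left) in both pairs; lists marked with an asterisk were set after these values were seen. Of the lists plotted, neutrophil granule genes (8 of 9) and neutrophil receptors (10 of 12) show the largest shares higher. Small leucine-rich and elastic fibre genes (10 of 27) show the largest share lower. Genes almost without untreated reads count as measured only through AOM/DSS, so the filter partly fixes the shares higher. Lists with no shared member or with fewer than 5 measured members are left out, and dotted lines give the shares of all genes (1.8% and 1.59%).

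Genes at the edge of the rule show how it cuts. Just inside on the higher side were Ly6c1, Sprr1a and Tnfrsf1b, whose weaker log2 ratios were 1.00, 1.01 and 1.01, and just outside were Ms4a4c, Lama3 and Siglece at 1.00, 0.99 and 0.99, the first of them just under 1 before rounding. On the lower side Slc6a11, Sardh and Cps1 were inside at -1.0, -1.0 and -1.01, and Cdh6, Pkia and Pck1 outside at -1.0, -0.99 and -0.99, where the first is again a rounded value.

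With genotype label and treatment as additive terms over all 4 libraries, edgeR's quasi-likelihood test called 0 of 18889 genes at a Benjamini-Hochberg adjusted p under 0.05 (0%). At an unadjusted p under 0.05 it had 532 higher (2.82%) and 592 lower (3.13%). The smallest adjusted p was 0.139, shared by S100a8 (log2 fold change 10.10, SE 0.64), Cxcl5, Mmp10 and Chil3, and the smallest on the lower side was 0.201 for S100g (-5.44, SE 0.43). DESeq2's Wald test on the same design called 203 higher (1.07%) and 144 lower (0.762%) after adjustment, of which 160 and 98 were among the shared genes. limma-voom called 0, with 619 and 675 at an unadjusted p under 0.05. With 4 libraries the fit keeps 1 residual degree of freedom, taken up by the interaction of label and treatment, and the biological coefficient of variation was 0.444. Without the AOM/DSS WT library edgeR called 663 higher and 540 lower, and without the AOM/DSS library labelled knockout 5 and 0. These tests use the contrast that chose the genes and add no support to it.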

How the data were processed

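RNA from mouse colon was made into libraries with an Ion Proton RNA-seq kit, per the labels' protocols. The authors deposited unnormalized counts of reads, 1 row per symbol. Reads were placed on GRCm38 (mm10), per the submitters' processing notes. Aligner, counter and strand handling were not given in the sources used here, so reads of a gene and of its antisense partner cannot be told apart. Symbols of 27 rows had become dates and were not named. Positions came from RefSeq (GRCm38.p6), which matched 493 of the 504 shared genes.

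Groups follow the labels for genotype and treatment. Counts were scaled with TMM factors of 0.9915, 0.9311, 0.9473 and 1.1434 (edgeR 4.0.16, R 4.3.3) in the order untreated WT, untreated labelled knockout, AOM/DSS WT and AOM/DSS labelled knockout. Ratios used log2(CPM + 1), which understates differences of low genes. Intervals are exact Clopper-Pearson intervals given the summed reads of a pair; they cover counting error only, as reads carry no molecular identifiers. A library with 0 counts was set to a floor of 3 counts, and the fold is then a lower bound. The additive fit used filterByExpr, a robust quasi-likelihood fit and Benjamini-Hochberg adjustment, with DESeq2 1.42.0 and limma 3.58.1 as alternatives. The edgeR fit and the 2-fold rule were also run on simulated counts of 18889 genes, 200 of them changed. With a coefficient of variation of 0.44 for every gene, the fit recovered 3% of 4-fold and 99% of 16-fold changes. The rule then passed 451 to 495 unchanged genes, against 0 to 2 with a coefficient of 0.2. The part of such spread in the 504 shared genes was not tested. With 1 library per group the labels give no replicates, so the p-values take the gap between the pairs as the spread between mice.

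The genes, their 37 lists and 10 further lists set after these values were seen were chosen with earlier results of these data known. Named genes were the 20 largest per direction by the weaker ratio (without segments of antigen receptors, predicted or mitochondrial genes, or pseudogenes, which removed 31 higher and 23 lower genes), up to 4 shared members and 2 others of each list, 3 genes on each side of the rule's edge, the 5 smallest p-values, neighbouring genes (at least 3 within 300 kb) and Card9; other list members were named after their values were seen. Some members of the lists are counted but not reported here by name.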

Additional observations from a re-analysis of the deposited data

Results flagged for a closer look

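The medians of 3 gene lists were past 2-fold in opposite directions in the 2 pairs, in values whose difference was not tested. Other lists whose medians differed in sign, among them the Wnt target and proliferation lists, had a median within 2-fold in at least 1 pair. B and plasma cell markers had a median log2 ratio of 2.23 in the WT pair and -1.64 in the pair labelled knockout. Interferon response genes had medians of -2.05 and 2.37, and Usp18, which restrains interferon signalling, was at 48.5, 9.44, 7.79 and 221 CPM in untreated WT, untreated labelled knockout, AOM/DSS WT and AOM/DSS labelled knockout. Small intestine absorptive genes had medians of 1.65 and -1.66. Of this list Mttp, the lipid transfer protein of chylomicron assembly, was the 1 of 8 genes that was higher in both pairs, at 1.51, 2.95, 17.4 and 8.02 CPM.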

How the results depend on the processing

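The count of shared genes was 268 higher and 236 lower. It was 135 and 104 with a pseudocount of 5 CPM, and 176 and 147 with at least 200 counts. Under the other scalings, filters and pseudocounts tried it lay within 1.5 times of these values, from 263 to 335 higher and from 224 to 326 lower. Scaling by library totals alone moved the median of all genes in the pair labelled knockout from -0.01 to 0.27, and 12 named genes, among them Fabp4, Fbln1, Col6a1, Col6a3 and Bmp6, no longer met the rule. No ratio of a named gene changed sign past the threshold under any alternative run. A shared count without a library could not be made, since each pair needs both.

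For the additive test, library totals alone gave 22 higher and 1 lower calls, no filter 70 and 11, and DESeq2 203 and 144, against 0 and 0. Leaving out 1 library at a time gave 0 to 663 higher and 0 to 540 lower calls, without the genotype term: 663 and 540 without the AOM/DSS WT library, 5 and 0 without the AOM/DSS library labelled knockout, and 0 and 0 without either untreated library. These fits hold 1 library in an arm, which is assumed to vary like the others. The cause was not tested. No paired analysis was possible because the labels carry no replicate numbers. With 1 library per group, depth limits the genes with under 50 reads, and the spread between mice was not measured.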
